A study of Mus musculus with 36 samples.

Results

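The miR-29 family was followed through an induction of Ikaros in a mouse pre-B cell line. Its members were taken as every row of the miRNA table named miR-29a, miR-29b or miR-29c, with any copy number and arm, which gave 7 of 469 miRNAs, 3 of them 3p arms and 4 of them 5p arms. The cells were the line B3, pre-B lymphocytes transduced with a retroviral vector. In the Ikaros line the vector encoded wild type Ikaros with a haemagglutinin tag, joined to ERt2, the part of the estrogen receptor that binds hormone, and GFP was made from the same transcript through an internal ribosomal entry site. In the control line it carried ERt2 without Ikaros. 4-hydroxy-tamoxifen (4-OHT), which moves the fusion protein into the nucleus, is labelled at 0.5 uM for every sample of both lines, including those of 0 h, although the study's methods call the 0 h cells untreated. Collection was at 0, 2, 6, 12, 18 and 24 h, and each of the 12 groups of line and time had 3 samples, which makes 36. Samples are named by the replicate numbers 1, 2 and 4 of the labels. Cells of 1 transduced line were grown repeatedly, so p-values measure the spread between cultures of that line.

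miRNAs are cut from a hairpin whose arms give a 5p and a 3p product, one of which is usually the more abundant guide. A miRNA recognises messenger RNAs mainly through its seed, bases 2 to 8 counted from 1 at the 5′ end, and lowers their stability and translation. The miR-29 family is known for targeting collagens, DNA methyltransferases and the survival factor Mcl1, and the transcription factor Myc is known to lower its transcription in B cells. Ikaros is a lymphoid transcription factor that takes pre-B cells out of cycle and lowers Myc.

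All 7 mature sequences were found in RefSeq (GRCm38.p6), which held 391 of the 469 names in the table. They are printed because the members differ in what a read can tell apart, with the seed in capitals. The 3p arms, the known guides of the family, were the following.
mmu-miR-29a-3p: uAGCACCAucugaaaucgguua
mmu-miR-29b-3p: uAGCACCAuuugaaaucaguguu
mmu-miR-29c-3p: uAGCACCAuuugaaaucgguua
The 3 arms had the same seed, and no other miRNA of the table with a sequence had it. miR-29a-3p and miR-29c-3p, both 22 bases long, differed by 1 substitution, C10U, with the base of miR-29a-3p first. miR-29b-3p, 23 bases long, had 3 differences from miR-29c-3p over the shared length, A18G, G21U and U22A, read from miR-29b-3p to miR-29c-3p. An error at 1 base could therefore move a read between miR-29a-3p and miR-29c-3p. The counts of such reads were not analysed here.

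The 5p arms, the partners of those guides, each had a seed of their own, and no other miRNA of the table with a sequence had any of these seeds either.
mmu-miR-29a-5p: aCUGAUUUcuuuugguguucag
mmu-miR-29b-1-5p: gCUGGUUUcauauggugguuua
mmu-miR-29b-2-5p: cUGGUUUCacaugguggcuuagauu
mmu-miR-29c-5p: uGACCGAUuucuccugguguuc
The longest run shared by mmu-miR-29b-1-5p and miR-29b-2-5p was 9 bases, which start at position 2 of the former and at position 1 of the latter. These arms thus have seeds shifted by 1 base against each other. The 5p arms were 22 bases long, except miR-29b-2-5p with 25.

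The hairpins lie in 2 clusters. Mir29b-2 (chr1:195037040-195037120, plus strand) and Mir29c (chr1:195037547-195037634, plus strand) are 426 bases apart, inside the long non-coding gene A330023F24Rik and in an exon of one of its transcripts, with an exon of Cd46 on the opposite strand. Mir29a (chr6:31062660-31062747, minus strand) and Mir29b-1 (chr6:31063023-31063093, minus strand) are 275 bases apart and lie in no annotated gene other than their own, except that the 5′ end of Mir29b-1 overlaps the 3′ end of the non-coding gene Gm27019 on the same strand (GENCODE annotation). miR-29c-3p, miR-29c-5p and miR-29b-2-5p come only from chromosome 1. miR-29a-3p, miR-29a-5p and miR-29b-1-5p come only from chromosome 6. miR-29b-3p is identical from both clusters, and its source cannot be told apart.

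The members spanned most of the range of the table. Values are log2 expression after the normalization of the authors, with no division by length and no correction for how well each sequence is captured, so differences between members are differences in signal. miR-29a-3p had a mean of 10.60 over the 36 samples and rank 57 of 469. mmu-miR-29b-3p followed with 8.17 and rank 91, and miR-29c-3p with 5.80 and rank 168. Of the 5p arms, miR-29a-5p was at 3.56 and rank 253, whereas miR-29b-2-5p (1.50), miR-29c-5p (1.30) and mmu-miR-29b-1-5p (1.23) ranked 385, 421 and 435. The SD within groups of these last 3 was 0.49, 0.40 and 0.36, and their order was not tested.

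Some values of the low arms were shared exactly between samples. The 3 control values of mmu-miR-29b-1-5p at 12 h were identical to every digit given, at 0.45, its lowest value in the 36 samples. Replicates 2 and 4 of the control line at 2 h were identical at 0.47. No other member had a value shared by any 2 samples. Over all 469 rows, 47 miRNAs had such shared values, and none of these values was above 1.22.

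The line and the sequencing batch need to be kept in mind for every line difference. The libraries were prepared and sequenced on 2 occasions, which the labels do not give for any sample. As read from a drawing of the design in the study, most Ikaros libraries shared an occasion with most control libraries of 0 h and 24 h, and most control libraries of 2 h to 18 h belonged to the other. Some samples were run on both occasions, from which the authors estimated the batch effect that they corrected before deposit. At 2 h to 18 h line and sequencing batch cannot be told apart here other than through that correction, and the table gives no values within a batch. Changes of the control line between these times and 0 h or 24 h mostly cross occasions. Those changes, and comparisons built on them, also rest on that correction. The labelled cell type was checked on listed markers. The haematopoietic miR-142-5p and miR-142-3p ranked 8 and 18 of 469. Of the 4 B-lineage and lymphoid markers, miR-181a-5p ranked 2, miR-181b-5p 7 and miR-155-5p 54, and miR-150-5p, which is known to be high in mature lymphocytes, ranked 236 with a median of 3.95. The erythroid, muscle and liver markers had no row in the table. The myeloid miR-223-3p was at 1.30 to 1.91 in the control line at 24 h and at 3.09 to 4.58 in the Ikaros line at 24 h, which moves with the 24 h differences described next, and its part in them was not tested. Of the 2 listed neuron markers, miR-9-5p ranked 17 of 469, at 12.69 to 13.87 in all samples, and miR-124-3p had no row. The other listed lineages were represented by 4 of 5 epithelial and by 2 of 5 fibroblast and smooth muscle markers. The summed level of the epithelial markers at 24 h was 6.24 to 6.44 in the control line and 5.38 to 5.80 in the Ikaros line, and at 0 h 6.17 to 6.83 and 5.69 to 5.89. That of the fibroblast and smooth muscle markers at 24 h was 2.24 to 3.00 in the control line and 1.98 to 2.32 in the Ikaros line, and at 0 h it was 2.23 to 2.46 and 2.48 to 2.87. The part of these markers in the line differences was not tested.

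miR-29c-3p, a guide arm made only on chromosome 1, rose step by step in the Ikaros line and stayed level in the control line. Its Ikaros values were 5.50, 5.65 and 5.91 at 0 h and 5.80, 5.79 and 5.69 at 2 h for replicates 1, 2 and 4. They were 6.09, 6.02 and 6.02 at 6 h and 6.52, 6.26 and 6.25 at 12 h. They reached 6.73, 6.69 and 6.87 at 18 h and 6.97, 6.96 and 7.09 at 24 h. From 6 h on, the samples of each time lay above all samples of the time before, whereas the ranges of 0 h and 2 h overlapped. The control values were 5.39, 5.24 and 5.43 at 0 h and 5.04, 5.43 and 5.40 at 24 h, and all 18 control samples lay between 5.02 and 5.67. Every Ikaros sample was above every control sample of its own time, at 0 h and 2 h as well.

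**Figure D1:**
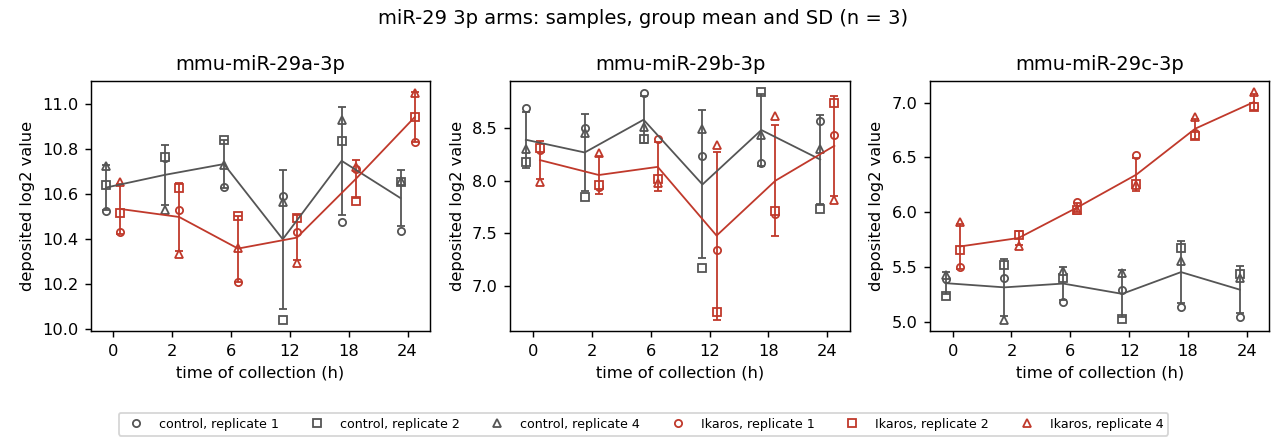
Deposited log2 values (vertical axis) of the 3 miR-29 3p arms against time of collection in hours (horizontal axis, times evenly spaced); open symbols are samples, shaped by replicate, and lines and bars are group means and SD, n = 3. miR-29c-3p climbs in the Ikaros line from 5.69 at 0 h to 7.01 at 24 h while the control line stays between 5.25 and 5.45, and miR-29b-3p has its lowest sample of each line at 12 h, in replicate 2.

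The line difference of miR-29c-3p, Ikaros minus control, grew at each time. It was 0.33 (SE 0.17, adjusted p = 0.341) at 0 h and 0.45 (adjusted p = 0.0772) at 2 h, and at neither time did it pass limma's test with Benjamini-Hochberg adjustment over the 469 miRNAs, the threshold being 0.05. It was 0.70 at 6 h (adjusted p = 0.00431), 1.09 at 12 h (adjusted p = 1.61e-05) and 1.31 at 18 h (adjusted p = 6.31e-07). At 24 h it was 1.71 (SE 0.17, 95% interval 1.37 to 2.06, adjusted p = 2.82e-09), a 3.28-fold difference that ranked 17 of 469 from the highest. With 1 replicate left out, the difference at 6 h was 0.59 (adjusted p = 0.144) without replicate 1 and 0.73 (adjusted p = 0.0977) without replicate 2. At 12 h the adjusted p was 0.0806 when only these 2 groups were fitted.

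The growth itself passed its test. Between 2 h and 24 h miR-29c-3p rose by 1.24 (SE 0.17, adjusted p = 1.77e-06) in the Ikaros line, whereas the change in the control line was -0.02 (adjusted p = 0.977). The difference between these changes was 1.26 (SE 0.24, adjusted p = 0.000461), and the line difference at 24 h exceeded that at 0 h by 1.38 (SE 0.24, adjusted p = 0.000179). This last value was 1.16 (adjusted p = 0.0586) without replicate 1. The interaction of line and time over all 6 times had an adjusted p of 0.000458, which was 0.145 without replicate 1 and 0.0779 without replicate 2. The control change from 2 h to 24 h, the 1.26 built on it and the interaction mostly cross sequencing occasions in the control line. They rest on the batch correction of the authors.

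The partner arms from the same cluster followed at 24 h, from much lower levels. miR-29c-5p, cut from the same hairpin as miR-29c-3p, had control values of 1.05, 1.19 and 1.13 and Ikaros values of 2.51, 2.07 and 1.76 at 24 h. miR-29b-2-5p, from the neighbouring hairpin, had control values of 1.20, 1.02 and 1.07 and Ikaros values of 3.15, 2.33 and 1.61. For both arms all 3 Ikaros samples lay above the 3 control samples at 24 h. The samples also separated at 24 h for miR-29a-5p and, with Ikaros lower, for miR-29b-1-5p, neither of which passed. The difference was 0.99 (SE 0.32, adjusted p = 0.0151) for miR-29c-5p and 1.26 (SE 0.38, adjusted p = 0.00939) for miR-29b-2-5p, the former a 1.98-fold difference. These calls depend on single replicates. For miR-29c-5p the difference was 0.76 (adjusted p = 0.189) without replicate 1 and 1.04 (adjusted p = 0.0642) without replicate 2. For miR-29b-2-5p it was 0.92 (adjusted p = 0.0782) without replicate 1 and 1.25 (adjusted p = 0.129) without replicate 2.

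**Figure D2:**
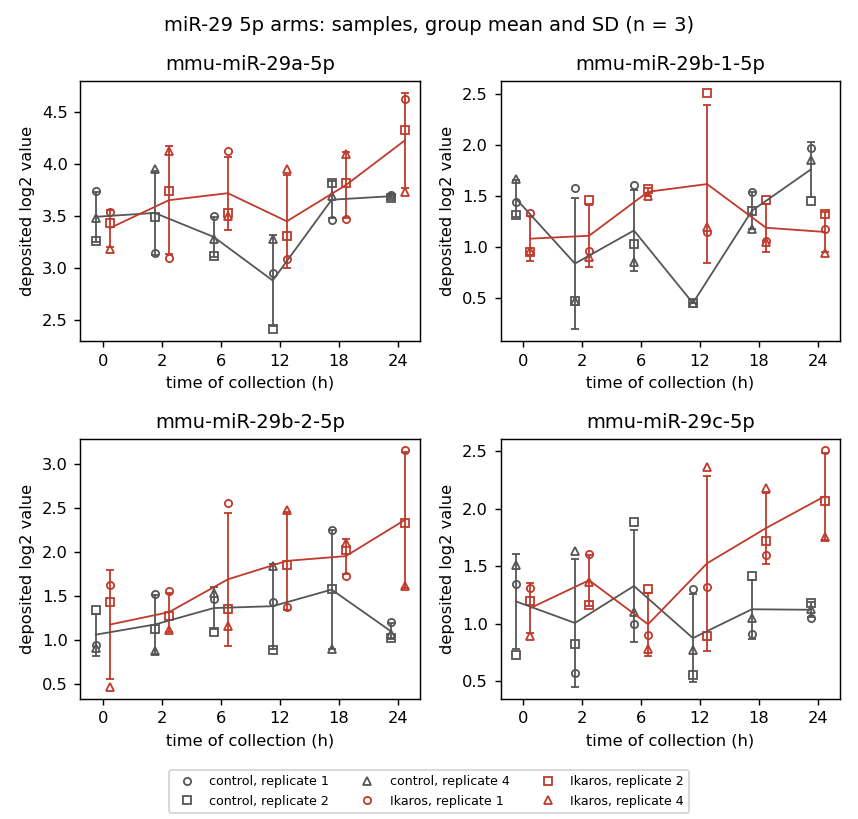
Deposited log2 values (vertical axis) of the 4 miR-29 5p arms against time of collection in hours (horizontal axis, times evenly spaced); open symbols are samples, shaped by replicate, and lines and bars are group means and SD, n = 3. At 24 h the Ikaros samples lie above the control samples for miR-29a-5p, miR-29b-2-5p and miR-29c-5p and below them for miR-29b-1-5p, whose 3 control values at 12 h coincide at 0.45.

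Before 24 h these 2 arms were less separated. miR-29c-5p at 18 h had control values of 0.91, 1.41 and 1.05 and Ikaros values of 1.60, 1.72 and 2.18, with a difference of 0.71 that did not pass (adjusted p = 0.0973). After subtraction of each sample's median it was 0.88 (adjusted p = 0.0311). In the Ikaros line, between 2 h and 24 h, miR-29b-2-5p rose by 1.05 (SE 0.38, adjusted p = 0.0386), and the change of miR-29c-5p was 0.73 (SE 0.32, adjusted p = 0.0863), or 0.93 (adjusted p = 0.0267) after median subtraction. The call of miR-29b-2-5p had an adjusted p of 0.190 without replicate 1, of 0.253 without replicate 2 and of 0.0938 when only the groups compared were fitted. The line difference at 24 h beyond that at 0 h was 1.15 (SE 0.54, adjusted p = 0.172) for miR-29b-2-5p and 1.05 (SE 0.45, adjusted p = 0.134) for miR-29c-5p.

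miR-29a-3p, the most abundant member and a product of chromosome 6 only, first lay lower and then higher in the Ikaros line. At 6 h its control values were 10.63, 10.84 and 10.73 and its Ikaros values 10.21, 10.50 and 10.36, without overlap. At 24 h its control values were 10.44, 10.65 and 10.66 and its Ikaros values 10.83, 10.95 and 11.05, again without overlap and in the other direction. The difference was -0.38 (SE 0.15, adjusted p = 0.0838) at 6 h, which did not pass, and 0.36 (SE 0.15, adjusted p = 0.0489) at 24 h, a 1.28-fold difference. The 24 h call was lost when the culture batch was a block (adjusted p = 0.0543), without the mean-variance trend (adjusted p = 0.0705), with only the 2 groups fitted (adjusted p = 0.0820) and without any 1 of the replicates (adjusted p = 0.162 to 0.185). After subtraction of each sample's median the 24 h difference was 0.59 (adjusted p = 0.00268). The same subtraction made the 6 h difference smaller, at -0.22 (adjusted p = 0.407), and after quantile normalization it was -0.41 (adjusted p = 0.0906).

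Within the Ikaros line miR-29a-3p rose by 0.44 from 2 h to 24 h (SE 0.15, adjusted p = 0.0234), and its samples at 24 h lay above those of 18 h, which lay above those of 12 h. That call had an adjusted p of 0.0666 without replicate 1, of 0.0929 without replicate 2, of 0.243 without replicate 4 and of 0.151 when only the groups compared were fitted. The change beyond the control line was 0.55 (SE 0.21, adjusted p = 0.0724), and after median subtraction 0.77 (adjusted p = 0.0183). The difference at 24 h beyond that at 0 h was 0.46 (SE 0.21, adjusted p = 0.150), and the interaction of line and time had an adjusted p of 0.172.

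The other products of chromosome 6 did not pass at 24 h, and they lay on opposite sides. miR-29a-5p, the partner of miR-29a-3p, had control values of 3.71, 3.68 and 3.69 and Ikaros values of 4.63, 4.33 and 3.73 at 24 h. Its difference was 0.54 (SE 0.29, adjusted p = 0.130), and it was 0.77 (adjusted p = 0.0285) after median subtraction and 0.73 (adjusted p = 0.0379) after quantile normalization. Between 2 h and 24 h of the Ikaros line it changed by 0.58 (SE 0.29, adjusted p = 0.134). That change was 0.10 (adjusted p = 0.878) without replicate 1 and 1.06 (adjusted p = 0.0163) without replicate 4, and it also passed after median subtraction (adjusted p = 0.0432) and quantile normalization (adjusted p = 0.0453).

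mmu-miR-29b-1-5p, the partner arm cut beside miR-29b-3p on chromosome 6, was the only member with a negative difference at 24 h, other than miR-29b-3p after quantile normalization (-0.047) and without replicate 2 (-0.31). Its control values were 1.98, 1.46 and 1.86 and its Ikaros values 1.18, 1.33 and 0.94, without overlap. The difference was -0.61 (SE 0.29, 95% interval -1.21 to -0.01, adjusted p = 0.0950). At 12 h it was 1.17 in the other direction (SE 0.29, adjusted p = 0.00432). All 3 control values were then at the shared 0.45, the lowest value of this arm, and so had no spread. The Ikaros values of the arm were 1.15, 2.52 and 1.20. The 2.52 was its highest value in the 36 samples, and without replicate 2 the difference was 0.72 (adjusted p = 0.190), with only the groups compared fitted the adjusted p was 0.133.

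The interaction of line and time passed for miR-29b-1-5p (adjusted p = 0.0226), and had an adjusted p of 0.0868, 0.396 and 0.261 without replicates 1, 2 and 4, and of 0.0627 after median subtraction. From 2 h to 24 h the control line changed by 0.92 (SE 0.29, adjusted p = 0.273), with 2 of the 3 control samples of 2 h at the shared 0.47. The change in the Ikaros line less that in the control line was -0.89 (SE 0.41, adjusted p = 0.146).

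mmu-miR-29b-3p, which both clusters make, did not pass in any comparison, although change over time in the Ikaros line had an adjusted p of 0.0324 without replicate 4. Its control values at 24 h were 8.57, 7.74 and 8.30 and its Ikaros values 8.44, 8.74 and 7.81, which overlapped. The difference was 0.13 (SE 0.34, 95% interval -0.56 to 0.82, adjusted p = 0.777), an interval that holds both a decrease and a 1.76-fold increase. At 12 h the values were 8.23, 7.17 and 8.50 in the control line and 7.34, 6.75 and 8.34 in the Ikaros line, and replicate 2 was the lowest sample of each line at any time. Replicate 2 of the control line at 12 h also had the lowest miR-29a-3p (10.04), miR-29a-5p (2.41) and miR-29c-5p (0.56) of the 36 samples. Its miR-29b-1-5p, 0.45, was the lowest value of that arm, shared by all control samples of 12 h.

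**Figure D3:**
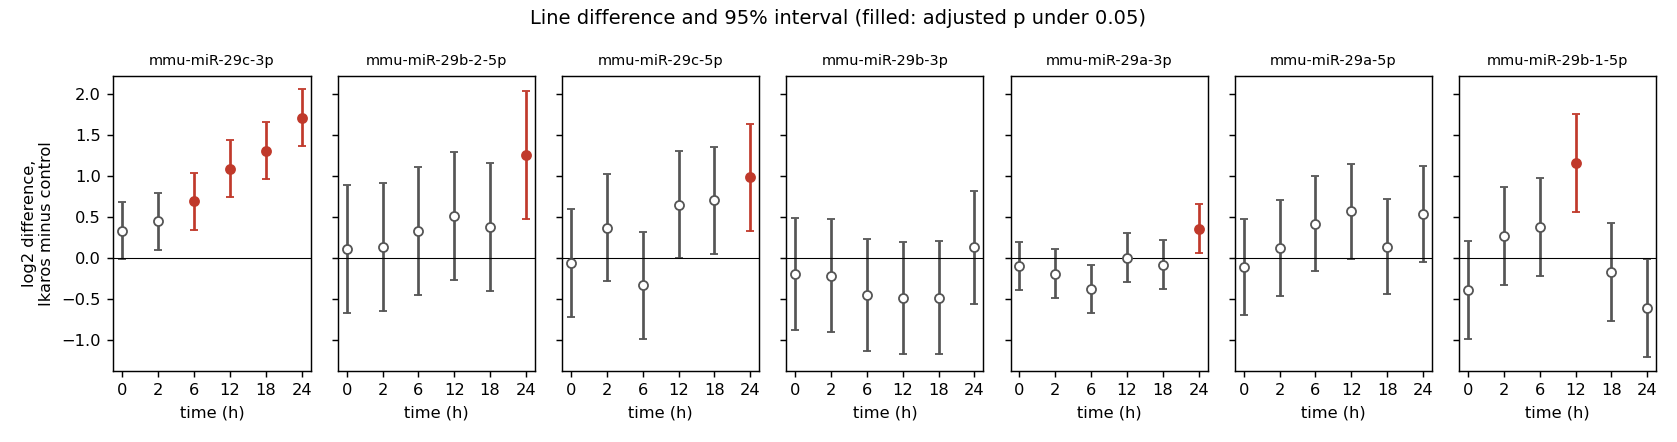
Line difference in log2 units, Ikaros minus control (vertical axis), against time of collection in hours (horizontal axis, times evenly spaced) for the 7 members, with 95% intervals from limma; filled red points have an adjusted p under 0.05. miR-29c-3p goes from 0.33 at 0 h to 1.71 at 24 h, whereas the intervals of miR-29b-3p hold 0 at every time.

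Counted over the family, 4 of 7 members passed at 24 h, against 39.9% of the 469 miRNAs in either direction. All 4 were higher in the Ikaros line, a direction in which 17.9% of all miRNAs passed, and they were the 3 members made only on chromosome 1 and miR-29a-3p. At the earlier times the counts were 0 of 7 at 0 h (8.53% of all miRNAs), 0 of 7 at 2 h (11.3%), 1 of 7 at 6 h (15.1%), 2 of 7 at 12 h (21.7%) and 1 of 7 at 18 h (29.9%). Without adjustment, 0 members and 75 of all miRNAs at 0 h, and 1 member and 123 of all miRNAs at 2 h, had a p under 0.05. The count at 24 h was 1, 1 and 3 without replicates 1, 2 and 4, where 30.3%, 23.5% and 29.6% of all miRNAs passed, and the member left without replicate 1 or 2 was miR-29c-3p. The median 24 h difference was 0.54 over the members and -0.07 over all miRNAs, and subtraction of each sample's median moved the latter to 0.17.

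The counts of change with time were smaller. Between 2 h and 24 h of the Ikaros line 3 of 7 members passed (28.6% of all miRNAs in either direction), all of them rising, against 9.81% of all miRNAs that rose. In the control line 0 of 7 passed in limma, as did 0% of all miRNAs, with 1 member and 33 of all miRNAs at an unadjusted p under 0.05. For the change beyond the control line it was 1 of 7 (14.3% of all miRNAs in either direction). For the 24 h difference beyond that at 0 h it was also 1 of 7. There 58 of all 469 miRNAs passed in either direction, 27 of them higher (5.76%). In both cases the member was miR-29c-3p. The interaction over 6 times passed for 2 of 7 (13.0%), miR-29c-3p and miR-29b-1-5p. Change over time passed for 2 of 7 in the Ikaros line (26.7%), miR-29c-3p (adjusted p = 5.83e-07) and miR-29a-3p (adjusted p = 0.0229). In the control line it passed for 0 of 7 (0.426%), where 1 member and 44 of all miRNAs had an unadjusted p under 0.05. These tests over time include 0 h, whose culture batches differ from those of 2 h to 24 h. Between 0 h and the later times, time and culture batch cannot be told apart. The call of miR-29a-3p was lost without any 1 of the replicates (adjusted p = 0.202 to 0.269) and with only the groups compared (adjusted p = 0.0521).

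**Figure D4:**
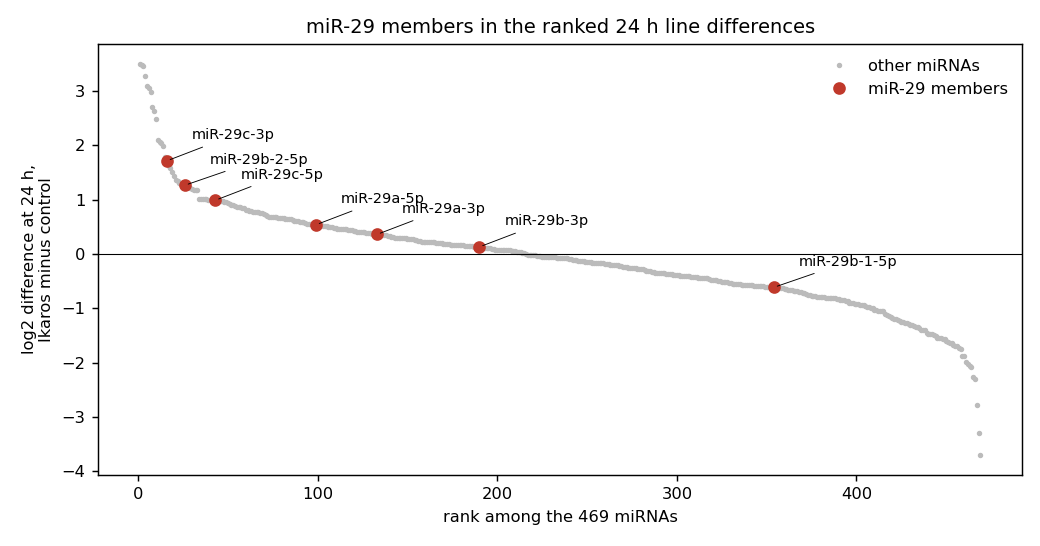
Line difference at 24 h in log2 units, Ikaros minus control (vertical axis), of the 469 miRNAs by rank (horizontal axis), with grey points for other miRNAs and red points for the 7 members. The members from chromosome 1 alone take ranks 17, 27 and 43, miR-29a-5p, miR-29a-3p and miR-29b-3p ranks 100, 134 and 191, and miR-29b-1-5p rank 355.

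The members were compared with each other inside each sample, which removes what a sample does to all miRNAs alike. For each of the 21 pairs the within-sample difference was compared between the lines, averaged over the times of each of the 6 culture batches, and tested by an exact two-sided sign-flip test over the batches. No pair passed after adjustment over the 21 pairs. The smallest p that 6 batches allow is 0.03125, and 5 pairs reached it (adjusted p = 0.131), while 14 would have been needed at that p for any to pass. Of the 6 batches, 3 hold only 0 h samples and the other 3 hold the samples of 2 h to 24 h, so each mean mixes the cultures of 0 h with the later ones. In these 5 pairs all 6 batches had the same sign, which the smallest p requires. All of them except miR-29b-3p with miR-29a-5p hold miR-29c-3p, so the pairs are not independent. miR-29c-3p was higher in the Ikaros line relative to miR-29b-3p by 0.94 ± 0.52 (SD, n = 6 batches), relative to miR-29b-1-5p by 0.78 ± 0.50 (SD, n = 6) and relative to miR-29a-5p by 0.57 ± 0.26 (SD, n = 6). miR-29a-3p minus miR-29c-3p was -0.77 ± 0.40 (SD, n = 6), and miR-29b-3p minus miR-29a-5p was -0.37 ± 0.33 (SD, n = 6). At 24 h alone, the line difference of miR-29c-3p minus miR-29b-1-5p was 2.33, that of miR-29c-3p minus miR-29a-5p was 1.18, that of miR-29b-3p minus miR-29c-3p was -1.58, that of miR-29a-3p minus miR-29c-3p was -1.35 and that of miR-29b-3p minus miR-29a-5p was -0.41.

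At 24 h the gap between the near-identical guides narrowed. miR-29a-3p exceeded miR-29c-3p by 5.22 to 5.40 in the control samples and by 3.87 to 3.99 in the Ikaros samples, without overlap. On the linear scale miR-29c-3p made up 2.09% ± 0.24 (SD, n = 3) of the summed 3p arms in the control line and 5.29% ± 0.32 (SD, n = 3) in the Ikaros line at 24 h. At 0 h these shares were 2.08% ± 0.11 and 2.82% ± 0.27 (SD, n = 3 each). miR-29a-3p kept most of the sum, with 81.7% ± 4.6 in the control line and 81.0% ± 3.9 in the Ikaros line at 24 h (SD, n = 3 each). The log2 of the sum, the supply of the shared seed as far as these values measure it, was 10.88 ± 0.07 in the control line and 11.25 ± 0.07 in the Ikaros line at 24 h, and 10.94 ± 0.05 and 10.84 ± 0.07 at 0 h (SD, n = 3 each). At 6 h it lay the other way, with 11.06 ± 0.05 in the control line and 10.70 ± 0.08 in the Ikaros line, and at 2 h it was 10.97 ± 0.10 and 10.79 ± 0.10 (SD, n = 3 each). At 12 h it was 10.68 ± 0.36 and 10.68 ± 0.01, and at 18 h 11.05 ± 0.25 and 10.97 ± 0.13 (SD, n = 3 each).

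**Figure D5:**
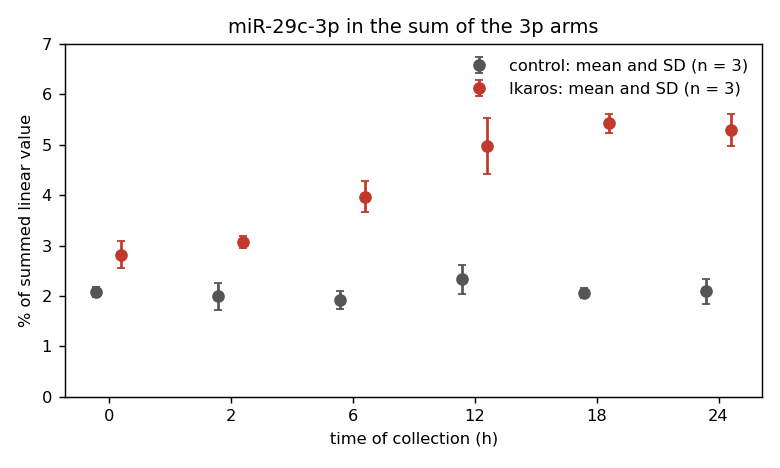
Share of miR-29c-3p in the summed linear values of the 3 miR-29 3p arms, in percent (vertical axis, from 0), against time of collection in hours (horizontal axis, times evenly spaced); points are means and bars SD, n = 3. The Ikaros line goes from 2.82% at 0 h to 5.29% at 24 h, and the control line stays between 1.91% and 2.33%.

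Over the 36 samples, miR-29c-3p correlated with miR-29c-5p at r = 0.61 and with miR-29b-2-5p at r = 0.57. Inside the groups, after removal of the group means, these values were -0.03 and -0.22, and miR-29c-3p went with miR-29a-3p at r = 0.74 instead, the arm that differs from it by 1 base. A part of misassigned reads in this was not tested. mmu-miR-29b-3p went with miR-29a-5p at r = 0.70 inside the groups. The points share lines, times and libraries, and these correlations are descriptions.

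Outside the family, the miRNAs most like miR-29c-3p over the 36 samples were miR-872-3p (r = 0.93), miR-362-3p (r = 0.92) and miR-500-3p (r = 0.91), of which the last pair is cut from an intron of the chloride transporter gene Clcn5. The most opposite was miR-92a-1-5p (r = -0.96), a partner arm from the growth-promoting cluster of miR-17 and miR-92a, which was also the most opposite to miR-29c-5p (r = -0.64). miR-29b-2-5p was most like miR-103-3p (r = 0.72), miR-500-5p (r = 0.70) and miR-450b-5p (r = 0.68) and least like miR-155-3p (r = -0.73). miR-29c-5p was most like miR-22-5p, miR-342-3p and miR-677-5p (r = 0.65, 0.65 and 0.62).

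The members of chromosome 6 had other neighbours. miR-29a-3p was most like miR-33-3p, miR-425-5p and miR-9-3p (r = 0.71, 0.71 and 0.69) and least like miR-6399 (r = -0.71). miR-29a-5p was most like miR-322-5p, miR-30c-5p and miR-301a-3p (r = 0.78, 0.73 and 0.71) and least like miR-1947-5p (r = -0.77). mmu-miR-29b-1-5p had the weakest likenesses, to miR-138-5p, miR-1936 and miR-330-3p (r = 0.52, 0.52 and 0.49) and least to miR-101a-3p (r = -0.48). mmu-miR-29b-3p was most like miR-324-5p, miR-466c-5p and miR-19a-5p (r = 0.72, 0.71 and 0.67) and least like miR-3061-3p (r = -0.66).

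Other miRNAs that Myc is known to lower were set beside the family, in a list of 25 of which 20 had a row in the table. At 24 h 7 of the 20 were higher in the Ikaros line, 2 were lower and 11 did not pass, against 17.9% of all miRNAs higher and 22.0% lower. The median difference of the list was 0.36, against -0.07 over all 469 miRNAs. The highest were miR-22-3p at 1.62 (SE 0.13, adjusted p = 4.13e-11), the growth-restraining miR-26a-5p at 1.20 (SE 0.13, adjusted p = 1.39e-08) and miR-30e-5p at 1.17 (SE 0.29, adjusted p = 0.00194). The lowest were the p53 target miR-34a-5p at -0.90 (SE 0.17, adjusted p = 0.000103), miR-150-5p, which restrains Myb, at -0.52 (adjusted p = 0.214) and miR-23a-3p at -0.45 (adjusted p = 0.141). At 0 h 1 of the 20 was higher and 0 were lower, against 4.48% and 4.05% of all miRNAs, with a median of -0.13 against -0.03. The 1 was miR-146a-5p, named after its values were seen, at 1.36 (SE 0.21, adjusted p = 3.07e-05). For the 24 h difference beyond that at 0 h, 3 of the 20 were higher and 1 was lower, against 5.76% and 6.61% of all miRNAs, with a median of 0.24 against -0.05. The 1 was again miR-146a-5p, at -1.29 (SE 0.29, adjusted p = 0.00374).

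A promoter of the host gene of the chromosome 1 cluster, A330023F24Rik, is shown because the 3 members made by that cluster alone were all higher at 24 h. However, miR-29b-3p, which that cluster also makes, did not pass. miR-29a-3p, made only on chromosome 6, was called higher at 24 h as well (0.36, adjusted p = 0.0489 in limma). Without replicate 1, or without replicate 2, miR-29c-3p was the only member called. No promoter of the chromosome 6 cluster is shown, and promoters of the clusters were not compared. The promoter of A330023F24Rik covers 250 bases before and 50 bases after the start in RefSeq, chr1:195017149-195017448 on the plus strand of GRCm38.p6. The letters GGGAA, the core of the sequences Ikaros is known to bind, and their reverse complement TTCCC are in capitals.
A330023F24Rik promoter: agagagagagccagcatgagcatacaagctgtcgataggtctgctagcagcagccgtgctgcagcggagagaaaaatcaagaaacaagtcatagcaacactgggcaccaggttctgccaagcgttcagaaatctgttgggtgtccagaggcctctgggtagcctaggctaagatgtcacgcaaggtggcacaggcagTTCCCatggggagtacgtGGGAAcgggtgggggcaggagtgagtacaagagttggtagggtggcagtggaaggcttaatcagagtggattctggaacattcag
It held 2 matches on either strand. At least 1 match was found in 62.7% of 32851 promoters of that length and at least 2 in 27.1%. The Myc E-box CACGTG had no match in this window, and 7.15% of the promoters held it. In the GENCODE annotation the gene starts further upstream, at chr1:194976375, and the bases around that start were not searched. A match is a stretch of letters, and neither binding nor the host transcript was analysed here.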

How the data were processed

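Small RNA libraries (TruSeq) of 36 samples of B3 cells were sequenced. The deposited table holds log2 expression values of 469 miRNAs, 1 column for each sample. Per their methods, the authors aligned reads to mouse miRBase sequences with Novoalign, counted them with multiBamCov, removed low miRNAs with NOISeq, removed GC effects (cqn), applied TMM normalization and then ComBat for the sequencing batch, and took the mean of technical replicates. The submitters' processing notes name the build mm10. The table gives no counts, so depth and counting error are unknown and precision rests on 3 samples a group.

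The log2 values were fitted with limma 3.58.1 in R 4.3.3 as 12 group means, with empirical Bayes moderation and a mean-variance trend, and p-values were adjusted by Benjamini-Hochberg over the 469 miRNAs of each contrast at 0.05. Pairs of members were tested with an exact sign-flip test in Python 3.11.15 over 6 culture batches. Alternatives were the culture batch as a block, median subtraction, quantile normalization, leaving out the lowest 25% of miRNAs, log2 of the linear value plus 1, no trend, only the groups compared, and leaving out each replicate. All members were named, with for each the 3 most alike miRNAs and the 1 least alike by Pearson's r, and the 3 highest and 3 lowest of the Myc list at 24 h. Members, lists and tests were chosen with earlier results of these data known.

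In the labels, a control and an Ikaros sample that share time and replicate number also share a culture batch, numbered 4, 5 and 6 at 0 h and 1, 2 and 3 later, which pairs them. Their deviations from the group means correlated at r = 0.34, 0.27, 0.41, 0.25, 0.06 and 0.26 at 0, 2, 6, 12, 18 and 24 h. Scripts were tested on simulated data.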

Additional observations from a re-analysis of the deposited data

Results flagged for a closer look

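miR-29c-3p changed differently in the lines: its difference at 24 h exceeded that at 0 h by 1.38, its change from 2 h to 24 h exceeded that of the control line by 1.26, and the interaction of line and time had an adjusted p of 0.000458 in limma. The interaction of mmu-miR-29b-1-5p had an adjusted p of 0.0226, in a row with 5 control values shared exactly between samples. Whether the shared values contribute to this was not tested.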

How the results depend on the processing

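With the culture batch as a block, the number of members called was unchanged for 12 of the 13 comparisons, and at 24 h it went from 4 to 3, since miR-29a-3p had an adjusted p of 0.0543. At 24 h the count was 5 after median subtraction (37.5% of all miRNAs) and 5 after quantile normalization (41.2%). It was 3 without the trend (39.2%) and 3 with only the groups compared (38.4%). With the block, 40.3% of all miRNAs passed at 24 h. For the other comparisons the shares of all miRNAs under the alternatives were not counted. Subtraction of each sample's median gave 2 called members at 18 h, 2 for the change from 2 h to 24 h beyond the control line, 5 for the Ikaros line between 2 h and 24 h, 1 for the interaction and 4 for time in the Ikaros line. Leaving out the lowest 25% of miRNAs removed 3 members from the test. Then 1 was called at 12 h, 2 of the 4 left at 24 h (47.3% of 351 miRNAs) and 1 for the interaction. With only the groups compared, 0 were called at 12 h, 1 for the Ikaros line between 2 h and 24 h and 1 for time in the Ikaros line. Without each replicate in turn, the counts ranged from 0 to 1 at 6 h, 1 to 2 at 12 h, 1 to 3 at 24 h, 0 to 1 for 24 h beyond 0 h, 1 to 3 for the Ikaros line between 2 h and 24 h, 0 to 1 for the interaction and 1 to 3 for time in the Ikaros line. Leaving out a replicate also left fewer samples in every group. The cause of the other changes was not tested.

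Directions turned only in values that did not pass. The 24 h difference of mmu-miR-29b-3p was -0.047 after quantile normalization and -0.31 to 0.44 without each replicate, and the change of miR-29c-3p in the control line was -0.22 to 0.15 without each replicate. The line difference of miR-29c-3p at 18 h and 24 h and its rise in the Ikaros line passed under all 10 alternatives, at 24 h with 1.61 to 1.95 and an adjusted p of 1.45e-10 to 0.000253. For the pairs of members, 4 of the 5 alternatives could not reach the threshold: without a replicate 4 batches are left, where the smallest p is 0.125, and with only the 24 h samples it is 0.1. With log2 of the linear value plus 1, no pair passed. Depth is not given in the table.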
